A study of Danio rerio with 11 samples.

Results

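Hemoglobin of the zebrafish embryo is built from alpha and beta globin chains, and the 10 globin genes examined here cover the embryonic alpha chains (hbae3, hbae1.1 and hbae1.2), the embryonic beta chains (hbbe1.1, hbbe1.2, hbbe1.3, hbbe2 and hbbe3) and the adult chains hbaa1 and hbba1. Every probe set whose annotated gene symbols include one of these names was taken, which gave 9 of the 15502 probe sets tested on the Affymetrix Zebrafish Genome Array. All 10 genes were represented, by 7 embryonic and 2 adult probe sets. The mutants carried 2 copies of the b104 allele of spt (tbx16, a T-box transcription factor of early mesoderm), and the wild-type embryos carried none. Embryos of both genotypes came from crosses of b104 carriers with a transgenic line in which the pax2a promoter drives GFP. At the 4/5-somite stage, 3 spt and 2 wild-type arrays held amplified RNA from small numbers of GFP-positive cells of the intermediate mesoderm, sorted from pooled embryos. At the 21-somite stage, 3 spt and 3 wild-type arrays held unamplified RNA from dissected tail tissue of pooled embryos, which was not selected for GFP. The tail pieces held somites and unsegmented mesoderm together with notochord, spinal cord and intermediate mesoderm.

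A hemoglobin molecule joins alpha and beta chains, each of which holds a heme group that binds oxygen. Primitive red blood cells of the zebrafish arise in the intermediate mesoderm and make embryonic chains, which are later replaced by adult chains in larval and adult red cells. In the GRCz12tu assembly the genes lie in 2 clusters. Chromosome 3 holds 12 globin genes, in the order hbaa2, hbba2, ba1l, hbaa1, hbba1, hbbe1.1, hbae1.1, hbbe1.2, hbae1.2, hbbe1.3, hbae1.3 and hbae3, so that adult genes sit at one end and embryonic genes at the other. Chromosome 12 holds 4, in the order hbae4, hbbe3, hbbe2 and hbae5. Of the 9 probe sets, 5 are annotated to a single gene and 4 to 2 or 3 genes that are near copies, so the hbae1 genes could not be told apart, nor could the hbbe1 genes. The annotation used here gives hbae1.3, hbae4, hbae5 and hbaa2 no probe set, and they were not analysed here. Probe sets whose names end in _s_at hold probes that match more than 1 transcript.

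Array medians were 152 to 167 for sorted cells and 261 to 293 for tails, and 67.6% to 71.1% of probe sets in sorted cells and 80.8% to 84.8% in tails had a signal of at least 100, a limit that the authors used to filter dim probe sets. The mutated gene tbx16 had tail signals of 420, 415 and 453 in spt and 1544, 948 and 1221 in wild type on its brighter probe set, and signals of 76.3 to 103 in spt and 103 to 106 in wild type in sorted cells, close to that limit. On its other probe set the tail signals were 412, 489 and 465 in spt and 944, 692 and 695 in wild type (1.71-fold, adjusted p = 0.108 from limma). Sorted cells there read 35.0 to 81.5 in spt and 23.1 to 23.7 in wild type, all under 100. Per the study's methods the RNA extractions came from separate clutches, and the labels do not say which arrays share one, so p-values measure the spread between these arrays. The authors set aside a further wild-type array of sorted cells, which did not cluster with the others and had lower red blood cell markers. The wild-type sorted arrays kept are thus those with higher red blood cell markers. All sorted-cell differences and ranks below hold for that choice of arrays. Because the embryos of a sample were pooled and the tissue mixed, fewer red blood cell precursors and less globin RNA per cell cannot be told apart in any comparison that follows.

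In the tail, all 7 embryonic globin probe sets fell in spt, and neither adult probe set passed the test. In sorted intermediate mesoderm, 6 of the 7 embryonic probe sets had lower values in spt, by between 2.51-fold and 45.3-fold in the ratio of mean signals, but none passed the adjusted threshold there. With limma over all 15502 probe sets, 0.51% were lower in the tail at an adjusted p under 0.05, against 7 of the 9 globin probe sets. At the 4/5-somite stage the share of all probe sets was 0%, while 1116 of them (7.2%) and 6 of the 9 globin probe sets had an unadjusted p under 0.05. The methods of the study also pick candidates by a looser rule, which asks for an unadjusted p under 0.05 and a fold of at least 1.5 in sorted cells, or a smaller minimum in the tail. Here the rule was applied to limma p-values of quantile-normalized signals, while the authors used other software and another normalization. They reported a high false-positive rate for their sorted-cell candidates. The rule was met in the lower direction by 6 globin probe sets in sorted cells and by 7 in the tail. Over all probe sets 2.73% met it in sorted cells and 3.35% in the tail. The median log2 fold change of the 9 globin probe sets was -1.44 in sorted cells and -3.95 in the tail, beside -0.01 and 0.00 over all probe sets.

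**Figure D1:**
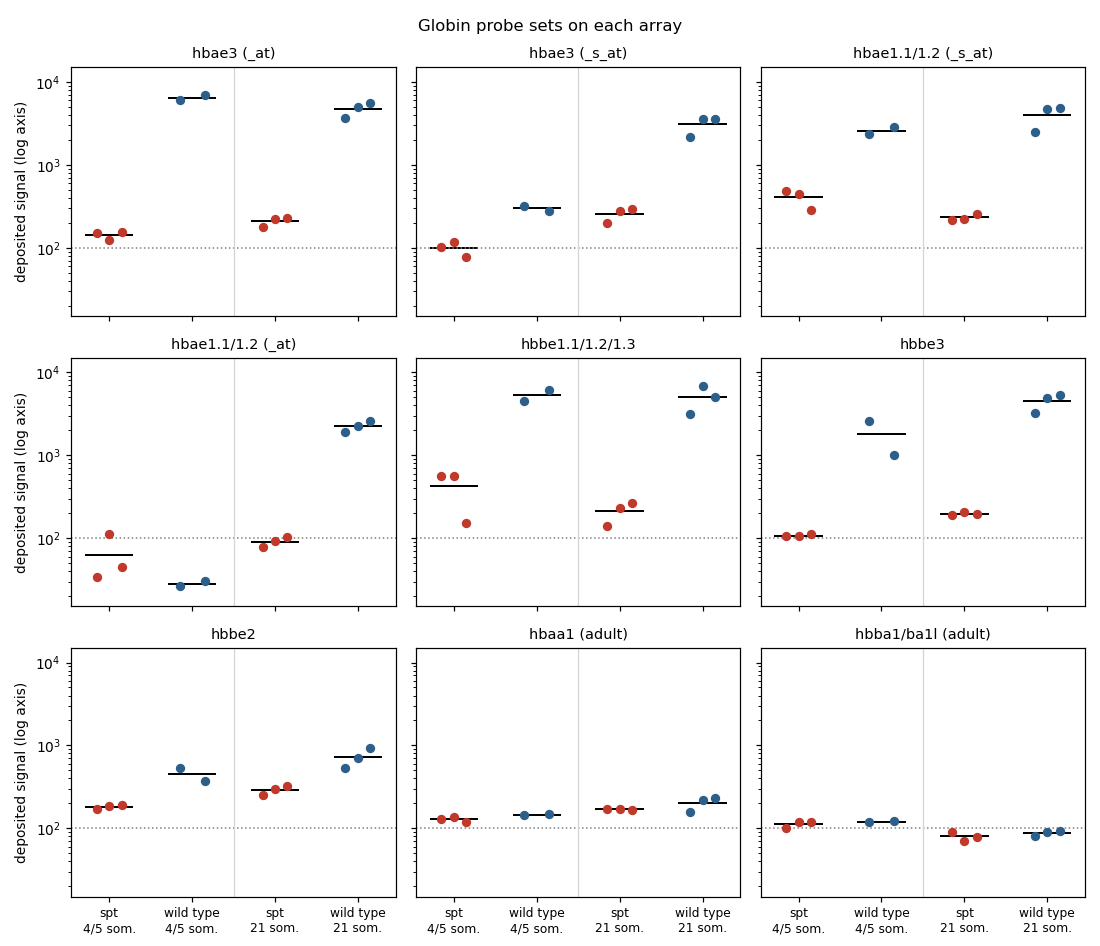
Deposited signal (log axis) of each globin probe set on each of the 11 arrays, with spt left of wild type at each stage. Points are arrays, black bars are group means, and the dotted line marks a signal of 100. The embryonic probe sets separate the genotypes at 21 somites, and the adult ones stay between 70.3 and 234 in all groups.

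The alpha chain gene hbae3, the last gene of the chromosome 3 cluster, is measured by 2 probe sets. On the one whose identifier ends in _at, the tail signals were 178, 221 and 228 in spt and 3661, 4985 and 5618 in wild type. No tail array of one genotype came near the other, and the mean was 22.8-fold lower in spt (limma log2 fold change -4.39 ± 0.19 SE, adjusted p = 2.14e-05). In sorted cells the same probe set read 152, 123 and 155 in spt and 5998 and 6981 in wild type. That difference was 45.3-fold in the means and ranked first among the falls of all probe sets at the 4/5-somite stage (limma log2 fold change -5.37 ± 0.33 SE, adjusted p = 0.0634). It passed the threshold when all 11 arrays shared 1 estimate of the spread (adjusted p = 7.31e-06 from limma), a fit that called 338 probe sets in all, 2.18% of those tested, and 6 of the 9 globin probe sets. That fit pools the spread of amplified and unamplified RNA, which the reported fits kept apart by stage, so its calls in sorted cells need caution.

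The other hbae3 probe set, ending in _s_at, had tail signals of 201, 278 and 294 in spt and 2156, 3562 and 3626 in wild type. Again the genotypes did not overlap (limma log2 fold change -3.49 ± 0.23 SE, adjusted p = 0.000187). In sorted cells it read 103, 117 and 77.7 in spt and 319 and 283 in wild type, a 3.03-fold difference in the means (limma log2 fold change -1.44 ± 0.20 SE, adjusted p = 0.238). The 2 probe sets of this gene therefore gave differences of unequal size in sorted cells and of more similar size in the tail.

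The hbae1.1 and hbae1.2 genes, embryonic alpha chains that alternate with the hbbe1 genes in the cluster, also have 2 probe sets. On the one ending in _s_at the tail signals were 215, 225 and 259.6 in spt and 2481, 4768 and 4878 in wild type. The lowest wild-type array was far above every spt array (limma log2 fold change -3.95 ± 0.25 SE, adjusted p = 0.000187). In sorted cells it read 488, 443 and 287 in spt and 2369 and 2834 in wild type, without overlap (6.41-fold, limma log2 fold change -2.74 ± 0.36 SE, adjusted p = 0.214).

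The other hbae1 probe set, ending in _at, behaved otherwise at the early stage. Its tail signals were 78.3, 91.5 and 103 in spt and 1898, 2249 and 2556 in wild type (limma log2 fold change -4.40 ± 0.18 SE, adjusted p = 2.14e-05). In sorted cells it read 33.8, 112 and 44.3 in spt and 26.3 and 30.4 in wild type, where all but 1 array lay under 100. The log2 fold change there was 0.69 (SE 0.41, adjusted p = 0.692 from limma). The 2 probe sets annotated to hbae1 thus gave like falls in the tail, while in sorted cells only the _s_at probe set was bright in wild type.

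The embryonic beta chain genes hbbe1.1, hbbe1.2 and hbbe1.3 share a single probe set. Its tail signals were 139, 229.6 and 264 in spt and 3125, 6868 and 4996 in wild type. The log2 fold change was -4.43 (SE 0.29, adjusted p = 0.000187 from limma), with no overlap of the genotypes. In sorted cells it read 564, 561 and 151 in spt and 4466 and 6166 in wild type (12.5-fold, limma log2 fold change -3.84 ± 0.63 SE, adjusted p = 0.337). Here spt replicate 5 was well below the other spt arrays, and it was also the lowest spt array on the hbae1 _s_at and hbae3 _s_at probe sets. It was the highest spt array on the hbae3 _at, hbbe2 and hbbe3 probe sets. Of the 7 embryonic probe sets it was thus lowest on 3 and highest on 3. On that array the 8 measured epidermis markers summed to 3628, against 1135 and 1968 on the other spt arrays and 944 and 1528 in wild type. Of this sum epcam gave 2477 and tp63 452. The other markers (krt4, krt5, krt8, cldne, cldni and agr2) did not exceed both wild-type arrays there. The 8 measured tailbud markers also summed highest on that array, to 8092, against 3368 and 4572 on the other spt arrays and 2065 and 4547 in wild type. Of this tailbud sum cdx4 gave 6453. The part of this array's make-up in the globin values was not tested.

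The beta chain genes of chromosome 12 differed from each other in the size of the fall. For hbbe3 the tail signals were 188, 208 and 198 in spt and 3223, 4939 and 5377 in wild type (22.8-fold, limma log2 fold change -4.37 ± 0.20 SE, adjusted p = 2.85e-05). Sorted cells read 105, 105 and 111 in spt and 2618 and 1005 in wild type. The spt arrays were nearly equal, while the wild-type arrays were far apart, and the log2 fold change was -3.80 (SE 0.44, adjusted p = 0.190 from limma). It was -3.17 without wild-type replicate 1 and -4.47 without wild-type replicate 2.

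The neighbouring hbbe2 had the smallest fall of the embryonic probe sets in the tail. Its tail signals were 256, 299.5 and 321 in spt and 534, 711 and 933 in wild type, a 2.48-fold difference without overlap (limma log2 fold change -1.27 ± 0.22 SE, adjusted p = 0.0446). This call was lost when any 1 tail array other than wild-type replicate 1 was left out, with adjusted p-values from limma of 0.0728 to 0.199. In sorted cells the signals were 171, 185 and 192 in spt and 541 and 375 in wild type (2.51-fold, limma log2 fold change -1.26 ± 0.27 SE, adjusted p = 0.50). The hbbe2 ratios were thus much alike at both stages.

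The adult chains had low signals in every group. The alpha chain hbaa1 read 171, 173 and 165 in spt tails and 156, 219 and 234 in wild-type tails, and the groups overlapped (limma log2 fold change -0.23 ± 0.15 SE, adjusted p = 0.945). In sorted cells it read 129.6, 138 and 118 in spt and 146 and 147 in wild type. The probe set of the beta chain hbba1, which is also annotated to ba1l and ba2, read 90.2, 70.3 and 78.9 in spt tails and 80.6, 89.8 and 92.1 in wild-type tails, all under 100. In sorted cells it read 101, 118 and 118 in spt and 119 and 122 in wild type. The adjusted p-values from limma were 0.808 for hbaa1 and 0.933 for hbba1 in sorted cells. Both adult probe sets had every spt array below every wild-type array in sorted cells, but 13.7% of all probe sets did so there, and the means differed by only 1.14-fold for hbaa1 and 1.07-fold for hbba1. In the tail 5.28% of all probe sets had non-overlapping groups of this kind, and among the globins these were the 7 embryonic ones.

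**Figure D2:**
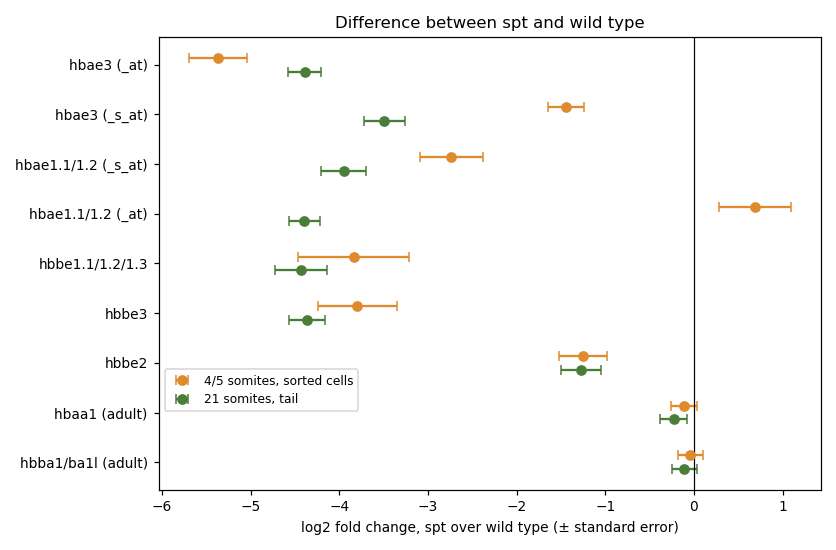
Log2 fold change of spt over wild type for each globin probe set at 4/5 somites (orange) and 21 somites (green), with SEs from limma as bars. The tail values of 6 embryonic probe sets lie between -4.43 and -3.49, hbbe2 is at -1.27 and the adult probe sets are near 0.

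Among all 15502 probe sets, the 6 with the largest falls in the tail were all embryonic globin probe sets. This held in each of 16 fits of the tail arrays, the alternatives included. The first 4, hbbe1, the hbae1 _at probe set, hbae3 and hbbe3, lay within 1 SE of each other and changed order, with hbbe1 first in 12 of the 16 fits. The spt tail signals of the hbae1 _at probe set (78.3 to 103) were near or under 100. Its fitted fall and its place among these are therefore less certain. The hbae1 _s_at and second hbae3 probe sets followed, and hbbe2 was at rank 52. In sorted cells hbae3 was at rank 1, hbbe1 at rank 16, hbbe3 at rank 17 and the hbae1 _s_at probe set at rank 41. The remaining embryonic probe sets were farther down, the second hbae3 probe set at rank 276, hbbe2 at rank 388 and the hbae1 _at probe set, which was higher in spt, at rank 14067. The hbaa1 probe set was at rank 1704 in the tail and 5949 in sorted cells.

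**Figure D3:**
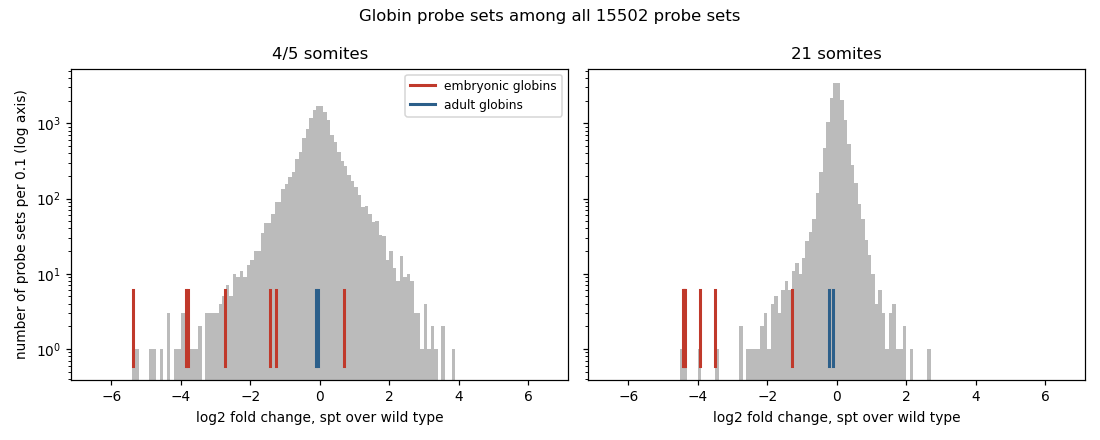
Number of probe sets (log axis) by log2 fold change of spt over wild type in sorted cells at 4/5 somites and in the tail at 21 somites, over all 15502 probe sets in grey. Vertical marks of fixed height show the embryonic globins in red and the adult globins in blue, and in the tail 6 red marks form the far left end.

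An interaction term over all 11 arrays compared the spt effect of the tail with that of sorted cells, and a negative value means a deeper fall in the tail. Of the 9 globin probe sets 1 passed, which was the hbae1 _at probe set (-5.08 ± 0.44 SE, adjusted p = 0.00164), beside 0.484% of all probe sets in either direction. Its wild-type signal in sorted cells was under 100, so the value rests on a dim probe set. The other hbae1 probe set had an interaction of -1.21 (SE 0.44, adjusted p = 0.389 from limma). For hbae3 the interactions were 0.98 (SE 0.35, adjusted p = 0.371 from limma) on its _at probe set and -2.05 (SE 0.39, adjusted p = 0.0584 from limma) on the other probe set, which point opposite ways. With quantile normalization over all 11 arrays they were -0.078 and -2.46, and the second passed the threshold (adjusted p = 0.0278 from limma), as it did under 6 other alternatives. For hbbe1, hbbe3 and hbbe2 the values were -0.59, -0.57 and -0.02, with SEs of 0.69, 0.48 and 0.37. None passed, and the joint normalization moved the first to -1.57 and the second to -1.45, also without a call, and that of the hbae1 _s_at probe set to -2.20 (adjusted p = 0.0581 from limma). Stage, tissue, sorting and amplification differ together here and cannot be told apart.

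The order of the 4 groups was read from the deposited signals, with no test and no scaling between the stages. Array medians were themselves higher in tails (261 to 293) than in sorted cells (152 to 167). A modest rise from sorted cells to tails, as between the spt groups, is thus not particular to globins. For hbbe3 the groups were separate and ran from spt sorted cells (105 to 111) over spt tails (188 to 208) and wild-type sorted cells (1005 to 2618) to wild-type tails (3223 to 5377). For hbae3 on its _at probe set the order was spt sorted cells, spt tails, wild-type tails and wild-type sorted cells, again without overlap between neighbours. On its second probe set the wild-type tails stood far above all other groups, and spt tails (201 to 294) overlapped wild-type sorted cells (283 to 319). The spt groups of hbbe1 overlapped each other, as did its wild-type groups. On the hbae1 _s_at probe set the spt tails (215 to 259.6) lay below the spt sorted cells (287 to 488), while the wild-type groups overlapped. For hbbe2 the wild-type groups overlapped, and spt tails (256 to 321) lay above spt sorted cells (171 to 192). The hbae1 _at probe set was bright only in wild-type tails. The adult hbaa1 was lowest in spt sorted cells (118 to 138) and a little higher in wild-type sorted cells (146 to 147), and its tail groups lay above both and overlapped each other. In all, 3 of the 7 embryonic probe sets had every wild-type tail array above every wild-type sorted array, beside 48.5% of all probe sets. With quantile normalization over all 11 arrays it was 4 of 7, beside 29.5% of all probe sets.

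Within a group, the deposited signals of the embryonic globins moved together from array to array in the tail. Wild-type replicate 1 was the lowest wild-type tail array on 7 of the 7 embryonic probe sets, with a median deviation of -0.45 from the group mean on the log2 scale. It was also the lowest on 45.1% of all probe sets. Among the spt tails, replicate 4 was the lowest on 7 of 7 and on 47.3% of all probe sets. Wild-type replicate 3 and spt replicate 6 were each the highest of their group on 6 of 7, and on 37.9% and 35.2% of all probe sets. By median signal over all probe sets, wild-type replicate 1 (261) and spt replicate 4 (272) were also the dimmest tail arrays of their groups. Wild-type replicate 3 (293) and spt replicate 6 (293) were the brightest. The part of array brightness in these shifts was not tested. The 7 probe sets are also not independent, since hbae3 and hbae1 have 2 each. Whether these arrays share a clutch or a processing batch is not given by the labels. These shifts are small beside the distance between the genotypes, and the tail fall of hbae3 on its _at probe set was -4.56 without wild-type replicate 1 and -4.32 without spt replicate 4, on the log2 scale. The 2 sorted wild-type arrays differed in both directions. The chromosome 12 genes hbbe3 and hbbe2 and the hbae3 _s_at probe set were lower in replicate 2 than in replicate 1, and the other 4 embryonic probe sets, all on chromosome 3, were higher. With 2 arrays this has no test.

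Other genes that red blood cells need were read from 3 lists. Heme, the pigment that each globin chain holds, is made by a chain of enzymes. For the 8 measured heme and iron genes the median log2 fold change was -0.54 in the tail and -0.18 in sorted cells. Of these genes 3 fell in the tail and none rose, beside 0.51% of all probe sets called lower there. They were cpox, a late enzyme of heme synthesis (536, 535 and 541 in spt and 1224, 1550 and 1720 in wild-type tails, adjusted p = 0.0064 from limma), alas2, the first and erythroid-specific enzyme (-1.20 ± 0.17 SE, adjusted p = 0.0171), and urod (-1.75 ± 0.26 SE, adjusted p = 0.0185). In sorted cells cpox read 144, 95.3 and 121 in spt and 1564 and 2382 in wild type, a 16.4-fold difference in the means. Its tail means differed by 2.79-fold, and the interaction passed the threshold (2.44 ± 0.39 SE, adjusted p = 0.0269 from limma). By contrast, alas2 in sorted cells read 147, 218 and 137 in spt and 196 and 204 in wild type, which overlap.

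Of the 7 measured genes of the red cell membrane and cytoplasm, 4 fell in the tail and none rose, with a median log2 fold change of -1.12. The share of all probe sets called lower in the tail was 0.51%. The carbonic anhydrase gene cahz read 60.9, 67.9 and 73.8 in spt tails and 329.7, 349.8 and 436 in wild-type tails (adjusted p = 0.000187 from limma). With all spt arrays under 100, the difference is given as at least 3.72-fold, the wild-type mean over a floor of 100. The anion exchanger gene slc4a1a read 10.2, 18.6 and 18.6 in spt tails and 206, 292 and 119 in wild-type tails, at least 2.06-fold lower in spt on the same floor (adjusted p = 0.00307 from limma). The spectrin gene sptb (-1.40 ± 0.16 SE, adjusted p = 0.00518) fell as well. In sorted cells the median of this list was -0.06, and no gene met the candidate rule. In sorted cells of both genotypes cahz and slc4a1a had signals of 77.5 to 117 and 82.5 to 191. For both genes the interaction passed the threshold (adjusted p = 0.00319 and 0.0219 from limma). It rests on dim signals, near or under 100 in wild-type sorted cells and under 100 in spt tails. A fall in sorted cells could therefore hardly have been seen.

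Of the 14 measured blood transcription factors and related genes, 3 fell in the tail and none rose, beside 0.51% of all probe sets called lower. The gene gata1a, the main regulator of globin and other erythroid genes, read 47.2, 61.6 and 59.2 in spt tails and 285, 416 and 382 in wild-type tails, at least 3.61-fold lower in spt on that floor (adjusted p = 0.000187 from limma). The others were drl, a zinc finger gene of early blood (-1.80 ± 0.21 SE, adjusted p = 0.00508), and klf17 (-1.44 ± 0.21 SE, adjusted p = 0.0175). In sorted cells none passed the adjusted threshold. The candidate rule was met there in the lower direction by 7 of the 14, beside 2.73% of all probe sets. The signal of gata1a there was 118, 192 and 135 in spt and 2432 and 2733 in wild type. Its fitted difference was larger in sorted cells than in the tail (limma interaction 1.64 ± 0.30 SE, adjusted p = 0.0446). With all spt tail signals under 100, the tail fold is only a lower bound, so which fold is larger is not settled.

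**Figure D4:**
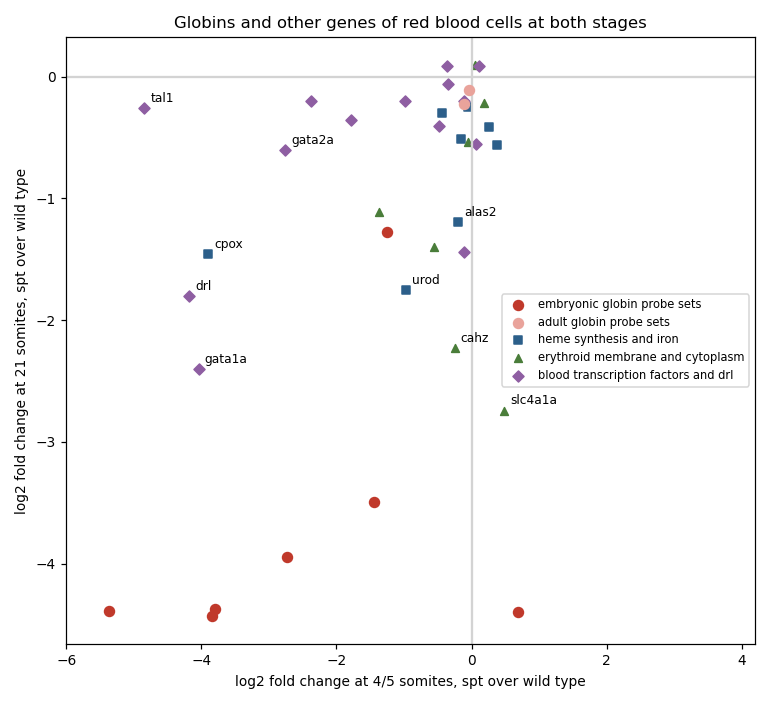
Log2 fold change of spt over wild type at 4/5 somites (x axis) against 21 somites (y axis) for the globin probe sets and the measured genes of 3 red blood cell lists, each gene by its brightest probe set. The embryonic globins other than hbbe2 lie at -3.49 or below on the y axis, lower than the fitted value of every gene of the lists. The genes tal1, gata2a, drl, cpox and gata1a lie far left, and cahz and slc4a1a lie low on the y axis near 0 on the x axis. The x value of tal1 is uncertain (SE 1.52), since its spt sorted-cell signals were 807, 18.6 and 19.0. The y values of gata1a, cahz and slc4a1a are fitted to spt signals under 100 and are no measured folds, so their order relative to the globins is not settled. The spt tail signals of the hbae1 _at probe set (78.3 to 103) were near or under 100 as well.

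Other globin genes were measured too. Of 4 on a list of globins outside the members, 1 fell in the tail, cygb1, a cytoglobin (191, 202 and 189.5 in spt and 372, 364 and 432 in wild type, adjusted p = 0.0192 from limma). Among all probe sets 0.51% were called lower there. The muscle globin gene mb read 572, 826 and 531 in spt tails and 435, 511 and 544 in wild-type tails, which overlap, and the neuronal globin gene ngb read 153 to 175 in spt and 133 to 168 in wild type. The adult beta chain gene hbba2, the second gene of the chromosome 3 cluster, read 171, 199 and 212 in spt tails and 159.8, 340 and 152 in wild-type tails.

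Markers of other tissues differed between the same tails. The 11 paraxial mesoderm and muscle genes summed to 10395 to 11352 in spt and 17926 to 20001 in wild type. Of these genes 4 fell, beside 0.51% of all probe sets. The 8 neural genes summed to 13314 to 14298 in spt and 8734 to 10867 in wild type, with 7 of 8 higher by the candidate rule, beside 3.66% of all probe sets, and none by the adjusted threshold. The 8 intermediate mesoderm and pronephros genes summed to 3041 to 3540 in spt and 1294 to 2247 in wild type, with cdh17, a cadherin of the kidney tubule, called higher. Most of that difference lay in cdh17 (means 1202 in spt and 308 in wild type) and atp1a1a.4 (1019 and 547). Means of pax8 (212 and 210), lhx1b (175 and 174) and wt1a (157 and 152) were nearly equal. That of lhx1a was lower in spt (170 and 189). Those of pax2a (181 and 119) and hnf1bb (92.8 and 44.55) were higher in spt. For pax2a this is the probe set used for its list, and its other probe set ran the opposite way in the tail (127 and 142). Endothelial genes, whose cells share precursors with blood, were higher in 6 of 6 cases, with sums of 1939 to 2232 in spt and 1504 to 1693 in wild type and no call. The sums of the 10 myeloid genes overlapped (1788 to 2209 in spt and 1718 to 2369 in wild type). Those of the notochord, epidermis and yolk or endoderm lists did so too, with no call in any of these 4 lists. In the fit 8 of 8 epidermis and 6 of 7 notochord genes had higher values in spt tails, and 9 of 10 myeloid genes lower ones. Over all 15502 probe sets, 7761 had higher and 7741 lower values in spt tails. Of the yolk or endoderm genes 3 were higher and 4 lower. Of the 8 tailbud genes 2 fell. In sorted cells the myeloid genes did not overlap, with sums of 1025 to 1217 in spt and 2556 to 2775 in wild type. Most of that difference lay in cebpa (means 92.6 in spt and 1534 in wild type). In the fit 8 of the 10 myeloid genes had lower values in spt there and 2 higher, with no call. Of all probe sets, 7897 had lower and 7605 higher values in spt sorted cells. In sorted cells the intermediate mesoderm genes summed to 6668 to 11992 in spt and 6815 to 7208 in wild type, and overlapped. The gene pax2a itself read 1056, 1283 and 530 in spt and 274 and 269 in wild type on its brighter probe set, but 98.7, 153 and 91.3 in spt and 158 and 169 in wild type on the other, which runs the opposite way. Of the 8 genes 5 had higher and 3 lower values in spt in the fit, none past the adjusted threshold. The part that such shifts in tissue make-up play in the globin values was not tested.

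The genes whose pattern over the 11 arrays was most like that of the globins were found by the root mean square difference, in log2 units, between their signals centred within each stage and the mean of the 7 globin probe sets with a wild-type mean of at least 100 at both stages. These were 6 embryonic probe sets and the adult hbaa1, and left out the hbae1 _at and hbba1 probe sets. The nearest was gata1a at 0.57, followed by cpox at 0.79, urod at 0.80, hdr, a death receptor gene of blood cells, at 0.81, and cygb1 and cahz at 0.87 each. The globin probe sets themselves were at 0.33 to 1.42 from this mean. The distance of cygb1 is that of a probe set ending in _x_at, a mark of known cross-hybridization per the study's methods. It is not the cygb1 probe set whose tail signals were given above. The hdr signals were 268, 237 and 207 in spt and 506, 530.2 and 512 in wild-type tails, and 40.5, 45.9 and 46.2 in spt and 333 and 277 in wild-type sorted cells.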

How the data were processed

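The authors hybridized biotin-labelled RNA to 1-colour Affymetrix Zebrafish Genome Arrays and their processing notes name the Microarray Suite method (MAS5 5.0). The deposited values are intensity signals on a linear scale, 1 per probe set and array (0.08 to 20089), and how they were scaled between arrays is not given in the sources used here. Absent calls, and a wild-type array that the authors set aside, were not used here. Of 15617 probe sets, 115 controls were left out. Per-array signals and fold ratios of means are of the deposited values. Testing was by limma (version 3.58.1, in R 4.3.3), separately for each stage, on log2 of the quantile-normalized signal plus 16. The variance was allowed to depend on the mean signal, and no covariate entered. The interaction used all 11 arrays and 1 spread. The Benjamini-Hochberg adjustment ran across 15502 probe sets, with a threshold of 0.05. The fits were tested on simulated data.

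The members and lists were chosen with earlier results of these data known. Every member is reported. Of each of 13 lists (106 of 163 genes measured), the brightest probe set of a gene was used and up to 3 genes by smallest p in the tail were named, and the genes most like the globins were named by distance. Other named genes (mb, ngb, hbba2, cdh17, tal1, gata2a, cebpa, cdx4, the other named intermediate mesoderm genes except pax2a, the epidermis genes and the sorted-cell values) were chosen after their values were seen. Sequences were not analysed here. Arrays have no read depth, and their number and the signal over background limit the precision. The alternatives were other normalizations, pseudocounts of 1 and 64, a filter at a signal of 100, no variance trend, array weights, 1 fit of all arrays and each array left out.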

Additional observations from a re-analysis of the deposited data

Results flagged for a closer look

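One globin probe set was set apart because its spt effect differed between the stages by the test of that difference. This was the probe set ending in _at that is annotated to hbae1.1 and hbae1.2, with a difference of -5.08 on the log2 scale (21 somites minus 4/5 somites). In sorted cells its signal was 33.8 to 112 in spt and 26.3 to 30.4 in wild type, and in the tail 78.3 to 103 in spt and 1898 to 2556 in wild type.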

How the results depend on the processing

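No paired analysis was possible because the labels do not say which spt and wild-type arrays share a clutch. Replicate numbers run on across the genotypes within a stage and do not give pairs. In sorted cells, the count of globin probe sets past the adjusted threshold was 0 in the reported fit, 1 with quantile normalization over all 11 arrays, 1 without a variance trend, 1 with array weights and 6 with all 11 arrays in 1 fit. It was 0 in each fit that left out an array, and the candidate count stayed at 6 throughout. In the tail the count was 7, and it was 6 where hbbe2 was lost. That happened with joint normalization (adjusted p = 0.0582), without a variance trend (0.0502), with all arrays in 1 fit (0.0744) and when any array but wild-type replicate 1 was left out.

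The interaction count, 1 in the reported fit, was 2 with median scaling, joint normalization, a pseudocount of 64 or no variance trend, 0 with the filter on low signals, under which 7 globin probe sets were tested, and between 1 and 2 when single arrays were left out. The cause was not tested, except that the filter removed the called probe set. Where it was 2, the second probe set was hbae3 _s_at. Some differences changed sign. For hbae3 (_at) the interaction, 0.98 as reported, was -0.078 with joint normalization. For hbbe2 it was 0.0053 (pseudocount of 1) and 0.053 (array weights), and -0.26 to 0.27 with arrays left out. With arrays left out, the interaction ranged from -1.20 to 0.10 for hbbe3 and from -0.18 to 0.023 for hbba1, and the sorted-cell log2 fold change of hbba1 from -0.098 to 0.011. Of 134 values for single globin probe sets in the tail, 126 kept direction and call and 8 lost the call, all of hbbe2. The wild-type tail arrays exceeded the wild-type sorted-cell arrays for 3 of 7 embryonic probe sets (48.5% of all probe sets), and for 4 with joint normalization (29.5%). Few arrays and signals under 100 limit the precision.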
